A study of Mus musculus with 6 samples.

Results

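The genes studied here are the chromosomal neighbours of Tmem106b, the gene that was knocked out. They are the gene models of the count table on mouse chromosome 6 between 3069759 and 23089269 (mm10), a window reaching 10 Mb to either side of Tmem106b (13069759 to 13089269), with at least 10 counts in 3 or more libraries. Of 169 models in the window 106 did not reach this count, 68 of them with 0 counts in every library, and 5 were left out by name (Tmem106b, a potassium channel gene and 3 further genes). This left 58 members, of 17005 models in the whole table that pass the same count rule and 43346 in all. The members comprise 53 protein-coding genes, 3 non-coding RNA genes and 2 processed pseudogenes, 33 on the centromere side of Tmem106b and 25 on the far side. At the edge of the count rule, the pseudogene Gm5873 entered with 3 libraries at 10 counts or more (18, 12 and 8 counts in wild-type and 6, 9 and 10 in knockout mice), while the paraoxonase gene Pon1 stayed out with 2 (0, 28 and 7, then 6, 24 and 0).

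RNA came from the cerebellum of 15-month-old mice, 3 labelled WT (Tmem106b+/+) and 3 labelled Tmem106b-/- (KO), with 1 female and 2 males per genotype and 1 library per mouse. Replicate 1 is the female in both groups. The labels state neither the strain nor how the knockout allele was made. Nothing beyond the Tmem106b genotype is named as an allele or treatment in either group.

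The product of Tmem106b sits in the membrane of lysosomes and late endosomes. A gene's neighbours along a chromosome can share regulatory elements with it, and they are inherited with it: an engineered allele keeps flanking sequence of the chromosome on which it was made until recombination replaces it. The window holds genes of unrelated function, among them an imprinted domain around Peg10 and Sgce, which are expressed from the paternal copy, the caveolin genes, the hepatocyte growth factor receptor gene Met, and Ptprz1, a receptor phosphatase gene of astroglia and oligodendrocyte precursors.

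Library totals ran from 25245778 to 31135185 counts, and 0.242% to 0.271% of them fell on the members. Tmem106b itself had 245 ± 19.4 CPM (TMM-scaled counts per 1000000 counts) in WT against 66.8 ± 3.64 CPM in KO (SD, n = 3 each), and every KO mouse was below every WT mouse. The 8 choroid plexus markers summed to 81.2 CPM in WT replicate 1 and to 1610 to 5040 CPM in the other 5 libraries. The 8 markers of meninges and fibroblasts summed to 89.0 CPM in the same WT mouse and to 163 to 282 CPM in the others. The 10 Purkinje markers summed to 9930 to 10700 CPM in WT against 6490 to 7570 CPM in KO, 4 of them past the threshold and lower, and the 7 granule cell markers to 4870 to 5280 and 5230 to 5420 CPM, as markers of the cerebellum named in the labels. A list of 5 forebrain or striatum markers, set up as genes that cerebellum lacks, summed to 182 to 194 CPM in WT against 155 to 169 CPM in KO. Of these 5, 1 had 0 counts in every library and 0 of the 4 tested passed the threshold. The source of these reads was not tested. The 8 microglia markers summed to 168 to 199 CPM in WT against 266 to 320 CPM in KO, with 3 past the threshold and higher. In whole tissue, fewer cells of a type and less RNA per cell cannot be told apart.

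Along the window the members' levels per kb of gene length covered a wide range. The highest was Ndufa4, a subunit of the respiratory chain, at 651 ± 17.6 CPM per kb in WT against 639 ± 29.3 in KO (SD, n = 3 each). It was followed by Dync1i1, an intermediate chain of cytoplasmic dynein, at 57.1 ± 5.04 and 52.8 ± 3.32, by Capza2, an actin capping protein, at 42.9 ± 1.25 and 46.4 ± 4.08, and by Ptprz1 at 42.7 ± 1.14 and 41.3 ± 1.31. In WT the levels of Capza2 and Ptprz1 lay within their SDs of each other, and in KO they lay apart by more than either SD. At the low end the chloride channel gene Cftr was at 0.0444 ± 0.0219 CPM per kb in WT against 0.0499 ± 0.0169 in KO. Of the 58 members 28 had a mean of at least 20 CPM and 12 a mean under 1 CPM. Members are unevenly spaced, with gaps of 3.12 Mb between Ica1 and Ndufa4 and of 2.92 Mb between Lsm8 and Tspan12.

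**Figure D1:**
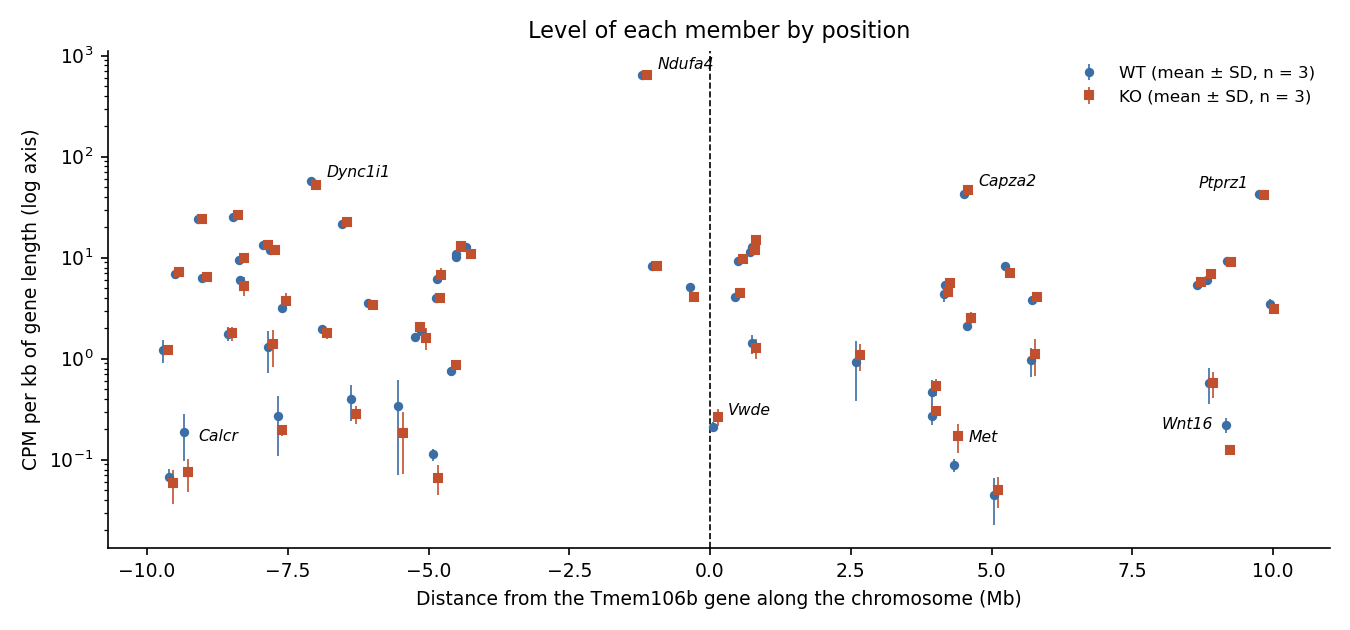
Level of each of the 58 members in CPM per kb of gene length (log axis, mean ± SD, n = 3 per genotype) against distance from Tmem106b in Mb, WT as circles and KO as squares shifted slightly apart. WT and KO points lie close together for most members, with Ndufa4 highest at 651 and 639 CPM per kb.

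No member passed the test. In edgeR's quasi-likelihood test with sex and genotype, with Benjamini-Hochberg adjustment across the 16934 tested genes, 0 of 58 members had an adjusted p under 0.05, against 0.283% of all genes (48 genes, of which Tmem106b is the 1 gene in the window). All 58 were tested. At an unadjusted p under 0.05 there were 12 members (20.7%) against 8.96% of all genes, 7 of them higher in KO (all genes 4.71%) and 5 lower (all genes 4.25%). limma-voom called 0 members (0.254% of all genes). DESeq2 called 2 of the 45 members it gave an adjusted p (1.65% of all genes), and edgeR with the GC content and length trends of each library removed, an alternative chosen after seeing the data, called 2 (1.82%): Glcci1 and Thsd7a in each case. With no filter on low counts edgeR called 1, Glcci1 (0.751% of all genes).

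The differences were small. The members' median log2 fold change, KO over WT, was 0.05 against 0.00029 over all genes tested and 0.0054 over the 758 other genes of chromosome 6. Among members of at least 20 CPM the log2 fold changes ran from -0.32 to 0.34, with a median SE of 0.084, and 26 of 28 lay within 0.25 of 0. Tmem106b, in the middle of the window, was at -1.88 (SE 0.08). All 5 members at or past a 1.5-fold difference had a mean under 1 CPM, where the median SE was 0.40. The median of the members depended on the females: it was -0.042 if WT replicate 1 was left out, -0.049 if KO replicate 1 was, and -0.049 in the males alone. With all mice kept and the GC and length trends of each library removed, the median was -0.0019. Per library, the members' median relative to the WT mean was 0.12 in KO replicate 1, 0.0027 and -0.027 in KO replicates 2 and 3, and -0.048 to 0.039 in WT.

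The sex term leaves 1 female per genotype, so leaving out either female rests the comparison on the males. With WT replicate 1 left out, the log2 fold change of 40 of 58 members moved by more than 1.5 times or to the other sign, and 14 of these crossed 0. The measure is a ratio, so values near 0 pass it with a small move, as with Mios, from -0.0020 to -0.065. The share over all genes was not computed. Among the 12 members with an unadjusted p under 0.05 such a move was seen for 2610001J05Rik alone, which went from 0.22 to 0.14. These 12 were picked by a p from all 6 mice, WT replicate 1 included, so their smaller moves follow in part from that choice. Of other abundant members, Capza2 went from 0.11 to 0.014, Dync1i1 from -0.11 to -0.0032, Peg10 from -0.18 to -0.40 and Casd1 from 0.07 to 0.025. Pdk4, Slc25a13 and Aass of energy and amino acid metabolism went to 0.084, -0.30 and -0.30. Near Tmem106b, Tmem168 went to 0.049, Gpr85 to 0.025, Phf14 to -0.059 and B630005N14Rik to -0.078.

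**Figure D2:**
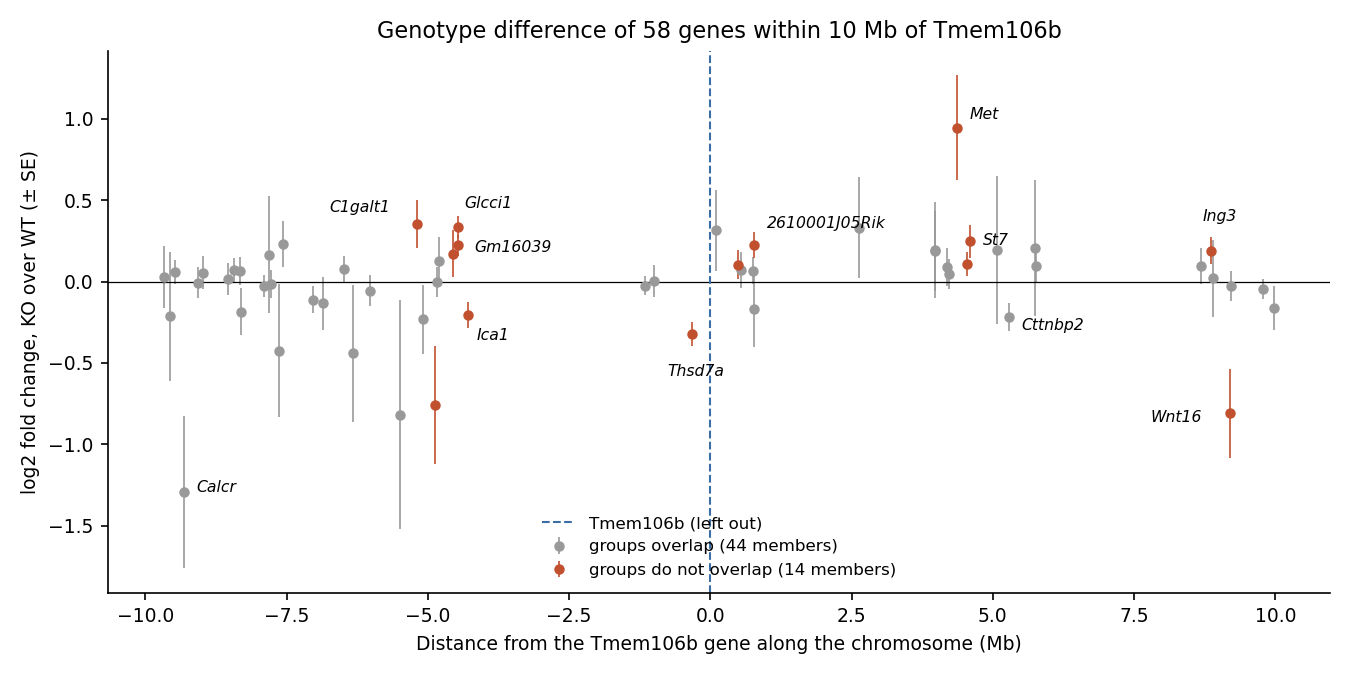
Log2 fold change, KO over WT, with its SE, for the 58 members against distance from Tmem106b in Mb. Members whose 3 KO mice all lie on 1 side of the 3 WT mice are in red (14 of 58), the 12 members with an unadjusted p under 0.05 are named, and the dashed line marks Tmem106b.

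Separation of the groups is a second description of the same values. In 14 of 58 members (24.1%) the 3 KO mice all lay on 1 side of the 3 WT mice, against 14.1% of all genes tested. In 10 of these KO was higher (all genes 7.77%) and in 4 lower (all genes 6.35%). They were unevenly placed: 11 of the 24 members within 5 Mb of Tmem106b (45.8%) and 3 of the 34 members at 5 to 10 Mb (8.82%). Inside 5 Mb they were 3 of 8 members within 1 Mb (37.5%), 0 of 1 at 1 to 2.5 Mb and 8 of 15 at 2.5 to 5 Mb (53.3%). Among the last 8 are Gm16039, A430035B10Rik and Glcci1, whose models overlap at 1 locus. Among the other genes of chromosome 6 the share was 15.3%, and it ran from 11.3% to 15.9% over 19 other chromosomes. Leaving out any 1 library gave 11 to 14 separated members within 5 Mb (45.8% to 58.3%) and 5 to 9 at 5 to 10 Mb (14.7% to 26.5%), with 20.4% to 31.8% of all genes. In the males alone the contrast was narrower, with 14 of 24 members within 5 Mb (58.3%), 16 of 34 at 5 to 10 Mb (47.1%) and 38.4% of all genes. Of the 15 members within 5 Mb that overlap no other gene model, 6 (40.0%) were separated. At an unadjusted p under 0.05 there were 7 of 24 members within 5 Mb (29.2%) and 5 of 34 farther out (14.7%), against 8.96% of all genes. These counts moved with single libraries. Leaving out WT replicate 1 gave 4 of 24 and 6 of 34, WT replicate 2 gave 6 and 2 of the same classes, and WT replicate 3 gave 6 and 1. In these fits 9.28%, 7.43% and 6.58% of all genes had such a p. Leaving out KO replicate 1 gave 4 and 6, KO replicate 2 gave 3 and 0, and KO replicate 3 gave 7 and 5. There the shares of all genes were 9.32%, 5.05% and 14.5%. The members share a chromosome and in part reads, so they are not independent of each other.

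**Figure D3:**
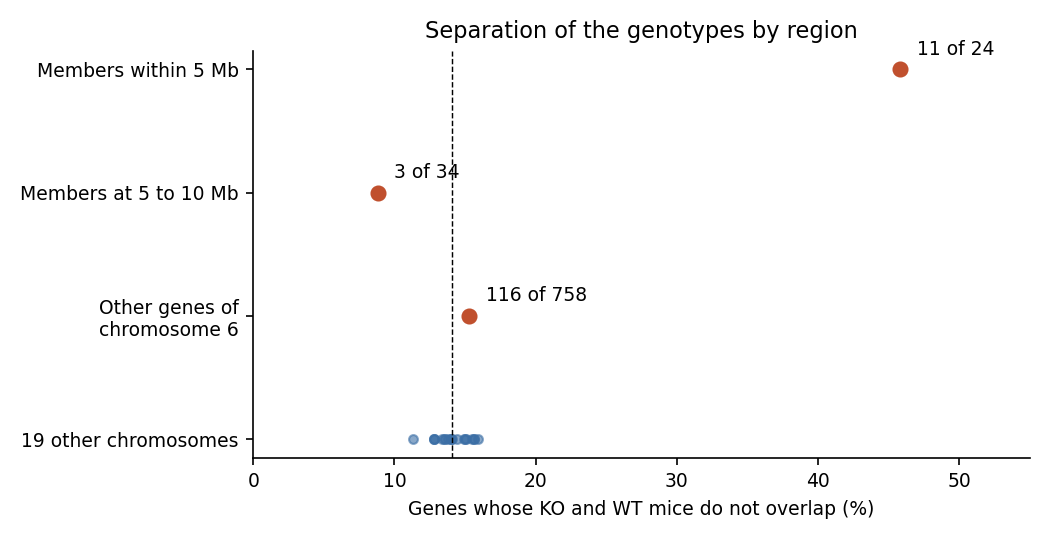
Share of genes whose KO and WT mice do not overlap, in percent, for members within 5 Mb of Tmem106b, members at 5 to 10 Mb, the other genes of chromosome 6 and each of 19 other chromosomes (blue dots). The dashed line is the share over all genes tested, 14.1%, and the members within 5 Mb stand at 45.8%.

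None of the direct neighbours of Tmem106b passed the test. On the near side the closest member is Thsd7a, 0.32 Mb away (12311610 to 12749410, minus strand), which encodes a thrombospondin-repeat membrane protein known from endothelium. Thsd7a read 72.1, 71.3 and 67.0 CPM in WT replicates 1 to 3 and 62.0, 54.1 and 52.5 CPM in KO replicates 1 to 3. Every KO mouse was below every WT mouse. The log2 fold change was -0.32 (SE 0.08), 20.1% lower, with an adjusted p of 0.181 in edgeR, 0.0466 in DESeq2 and 0.00778 in edgeR with GC and length offsets. Over 15 alternatives its log2 fold change ran from -0.38 to -0.28 and its adjusted p from 0.00778 to 0.784, with 2 calls. Endothelial and pericyte markers gave 400 to 503 CPM in WT against 398 to 499 CPM in KO in sum, and 0 of 8 passed. Purkinje markers were lower and microglia markers higher in the same KO mice. The part of any of these cell types in the Thsd7a value and the other values was not tested.

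Phf14, a chromatin reader gene 0.99 Mb away, was at 37.9 ± 4.09 CPM in WT against 38.0 ± 1.71 CPM in KO, and Ndufa4, 1.16 Mb away, at 320 ± 8.63 and 315 ± 14.4 CPM (SD, n = 3 each). Their log2 fold changes were 0.0030 (SE 0.10) and -0.03 (SE 0.06). On the far side Vwde, a gene for a secreted protein with a von Willebrand factor domain, begins 0.10 Mb from Tmem106b. It read 0.765, 0.955 and 0.809 CPM in WT against 0.866, 1.03 and 1.27 CPM in KO, from 22 to 35 counts a library, and the groups overlapped. Tmem168, a gene for a multi-pass membrane protein at 0.49 Mb, read 22.7, 25.0 and 24.3 CPM in WT against 26.4, 25.6 and 25.4 CPM in KO. The KO mice were all above the WT mice, by a log2 fold change of 0.10 (SE 0.09, edgeR adjusted p = 0.786). B630005N14Rik, whose current symbol is Bmt2 and which encodes a methyltransferase that restrains mTORC1, was at 0.07 (SE 0.11). Gpr85, an orphan receptor gene of the brain, was also at 0.07 (SE 0.08).

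The last of this group, 2610001J05Rik at 0.78 Mb, starts 8 bp from 1110019D14Rik, a non-coding RNA gene on the other strand. 2610001J05Rik read 46.1, 49.1 and 49.6 CPM in WT against 60.4, 55.7 and 53.2 CPM in KO. The groups did not overlap, and the log2 fold change was 0.22 (SE 0.08, edgeR adjusted p = 0.453). Its partner read 2.43, 1.94 and 3.00 CPM in WT against 2.75, 1.78 and 2.10 CPM in KO, with overlapping groups and a log2 fold change of -0.17 (SE 0.23). In all, 6 pairs of members on opposite strands start within 1000 bp of each other. Sgce, a sarcoglycan gene, and Peg10, a retrotransposon-derived gene, start 102 bp apart and were at 0.06 (SE 0.09) and -0.18 (SE 0.14). Ndufa4 and Phf14 start 363 bp apart, with the values given above.

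The member with the lowest unadjusted p was Glcci1, a gene named for its induction by glucocorticoid, 4.47 Mb from Tmem106b (8509600 to 8597548, plus strand). Glcci1 read 84.95, 79.4 and 74.2 CPM in WT against 105, 100 and 95.4 CPM in KO. All KO mice were above all WT mice. The log2 fold change was 0.34 (SE 0.07), 26.2% higher, with an adjusted p of 0.124 in edgeR, 0.00978 by DESeq2, 0.136 by limma-voom and 0.0290 once GC and length trends were removed. Over 15 alternatives the log2 fold change ran from 0.30 to 0.37 and the adjusted p from 0.00978 to 0.681, with 3 calls. The ratio was 0.31 on the log2 scale between the females and 0.35 between the means of the males.

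Models that overlap Glcci1 had the same direction. Gm16039, now named Umad1, read 119, 114 and 108 CPM in WT against 141, 130 and 126 CPM in KO, a log2 fold change of 0.22 (SE 0.06, edgeR adjusted p = 0.300). In the deposited table this model runs from 8259288 to 8597480 with 10430 exonic bases and so covers nearly the whole of Glcci1. In GENCODE M21 the same gene ends at 8459470, holds 5018 exonic bases and shares 0 of them with Glcci1, so the Gm16039 counts may include Glcci1 reads and are not a separate observation. The non-coding A430035B10Rik, which overlaps the start of Glcci1 on the other strand and whose reads cannot be told apart from it without the strand setting, read 4.06, 3.82 and 3.71 CPM in WT against 4.60, 4.22 and 4.23 CPM in KO (log2 fold change 0.17, SE 0.14). Rpa3, a replication protein gene that starts 115 bp from Gm16039 on the other strand, was at 0.13 (SE 0.15) with overlapping groups.

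Next to Glcci1 on the side of Tmem106b, Ica1, which encodes a coat-associated protein of the Golgi and of secretory granules, had the opposite direction. It read 39.9, 40.5 and 43.1 CPM in WT against 36.2, 36.5 and 34.3 CPM in KO. The groups did not overlap, and the log2 fold change was -0.21 (SE 0.08, edgeR adjusted p = 0.495). On the other side, C1galt1, the core 1 galactosyltransferase of O-glycans at 5.20 Mb, read 4.19, 3.62 and 4.14 CPM in WT against 5.51, 5.12 and 4.67 CPM in KO, also without overlap (0.35, SE 0.15, edgeR adjusted p = 0.533). Col28a1, a collagen gene between C1galt1 and Glcci1, was lower without overlap at 0.555 ± 0.0759 CPM in WT against 0.325 ± 0.106 CPM in KO (SD, n = 3 each), but on 7 to 19 counts a library. Mios, a component of the GATOR2 complex in amino acid sensing, was at -0.0020 (SE 0.09). Adjacent genes in this stretch thus had log2 fold changes of opposite sign.

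The start regions of Glcci1, Ica1, Thsd7a, 2610001J05Rik and St7 are printed here because these 5 members lay within 5 Mb, had a mean of at least 20 CPM and had non-overlapping groups at an unadjusted p under 0.05. Gm16039 met the same terms and is left out because its model covers Glcci1. Each runs from 250 bases before to 50 after the start in RefSeq (GRCm38.p6, the assembly of mm10), on the strand of the gene. Capitals mark matches on either strand to 4 motifs: CACGTG (the E-box core found in the CLEAR elements of many lysosomal genes), GGGCGG (the GC box), TATAAA (the TATA box) and CCAAT.
Glcci1, chr6:8509350-8509649, plus strand: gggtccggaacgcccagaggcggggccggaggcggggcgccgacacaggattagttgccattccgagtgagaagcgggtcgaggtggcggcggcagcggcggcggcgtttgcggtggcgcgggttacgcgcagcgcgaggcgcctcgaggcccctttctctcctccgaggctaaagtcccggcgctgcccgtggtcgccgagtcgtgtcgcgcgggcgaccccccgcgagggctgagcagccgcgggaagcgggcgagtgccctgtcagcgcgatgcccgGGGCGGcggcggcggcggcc
Ica1, chr6:8778435-8778734, minus strand: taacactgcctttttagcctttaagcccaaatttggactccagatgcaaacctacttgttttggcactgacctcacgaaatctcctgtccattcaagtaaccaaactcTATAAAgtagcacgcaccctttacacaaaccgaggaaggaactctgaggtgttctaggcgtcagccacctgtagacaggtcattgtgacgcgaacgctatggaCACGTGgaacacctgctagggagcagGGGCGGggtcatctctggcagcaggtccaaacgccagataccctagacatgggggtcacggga
Thsd7a, chr6:12749204-12749503, minus strand: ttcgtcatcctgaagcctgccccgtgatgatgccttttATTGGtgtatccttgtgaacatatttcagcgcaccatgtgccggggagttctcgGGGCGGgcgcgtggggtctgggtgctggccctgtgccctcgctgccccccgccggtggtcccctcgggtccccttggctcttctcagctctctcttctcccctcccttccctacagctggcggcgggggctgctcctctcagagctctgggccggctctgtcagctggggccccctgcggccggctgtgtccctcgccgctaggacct
2610001J05Rik, chr6:13871469-13871768, minus strand: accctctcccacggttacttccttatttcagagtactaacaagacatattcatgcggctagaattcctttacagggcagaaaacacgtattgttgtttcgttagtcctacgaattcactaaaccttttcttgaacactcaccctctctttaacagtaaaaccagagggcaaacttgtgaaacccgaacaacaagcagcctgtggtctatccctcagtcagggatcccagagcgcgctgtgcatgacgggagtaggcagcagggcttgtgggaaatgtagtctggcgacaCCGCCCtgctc
St7, chr6:17693744-17694043, plus strand: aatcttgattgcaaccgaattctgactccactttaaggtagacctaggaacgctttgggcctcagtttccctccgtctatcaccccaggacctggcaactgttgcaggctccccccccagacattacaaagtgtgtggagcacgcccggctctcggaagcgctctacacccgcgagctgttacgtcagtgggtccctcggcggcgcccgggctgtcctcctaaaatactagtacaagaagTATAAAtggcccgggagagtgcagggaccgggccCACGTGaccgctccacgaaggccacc
The Glcci1 start is a CpG-dense stretch with 50 CpG in 300 bases, against 11 at Ica1, 19 at Thsd7a, 11 at 2610001J05Rik and 19 at St7. The median was 17 over the members with a promoter and 7 over all 32851 promoters of the table. Each but St7 holds 1 GC box. Ica1 and St7 each hold 1 CACGTG and 1 TATA box, and Thsd7a alone of the 5 holds CCAAT. The St7 start in RefSeq lies 1061 bp inside the model of the count table. Of the 51 members with a promoter in the table, 7 (13.7%) held CACGTG, 34 (66.7%) the GC box, 8 (15.7%) the TATA box and 22 (43.1%) CCAAT. Over all promoters the shares were 7.15%, 35.7%, 13.6% and 37.4%. Members were chosen by a count rule and the promoters of the table were not, so the sets are unlike. These matches describe the letters of these windows only.

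On the far side of Tmem106b, at 3.98 to 4.60 Mb, lies a run of genes that begins with Tes, Cav2 and Cav1 and ends with Met, Capza2 and St7. Met read 0.599, 0.791 and 0.640 CPM in WT against 1.65, 1.48 and 0.832 CPM in KO, from 18 to 43 counts a library. The KO mice were all above the WT mice, though KO replicate 3 was close to WT replicate 2. The log2 fold change of Met was 0.95 (SE 0.32, edgeR adjusted p = 0.399). St7, a gene for a membrane protein first described as a tumour suppressor candidate, read 20.3, 17.8 and 20.1 CPM in WT against 26.8, 21.4 and 21.1 CPM in KO, without overlap (0.25, SE 0.10, edgeR adjusted p = 0.521). Capza2 read 244, 257 and 257 CPM in WT against 301, 258 and 261 CPM in KO, where KO replicate 1 stood apart and the other KO mice lay just above the highest WT mouse (0.11, SE 0.07). The caveolin genes Cav1 and Cav2, which build the caveolae of endothelial cells, were at 0.05 (SE 0.09) and 0.09 (SE 0.12). Beyond them, Cttnbp2, a cortactin-binding protein gene of dendritic spines at 5.28 Mb, read 75.2, 67.7 and 76.5 CPM in WT against 71.0, 61.9 and 56.3 CPM in KO, and the groups overlapped (-0.22, SE 0.09, edgeR adjusted p = 0.509). Lsm8, of the spliceosomal LSM ring, was at 0.10 (SE 0.10). Within 5 Mb on this side 13 of 14 members had a log2 fold change above 0, against 5 of 10 on the near side and 50.1% of all genes. Without WT replicate 1, B630005N14Rik, Mdfic, Tes and Cav2 on this side fell below 0, as did Phf14 on the near side. Over both sides together, 18 of 24 members within 5 Mb were above 0 with a median of 0.11, and 13 of 24 were without WT replicate 1 (median 0.017) or without KO replicate 1 (median 0.0089). With all mice kept and the GC and length trends of each library removed, 17 of 24 were above 0, with a median of 0.027.

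**Figure D4:**
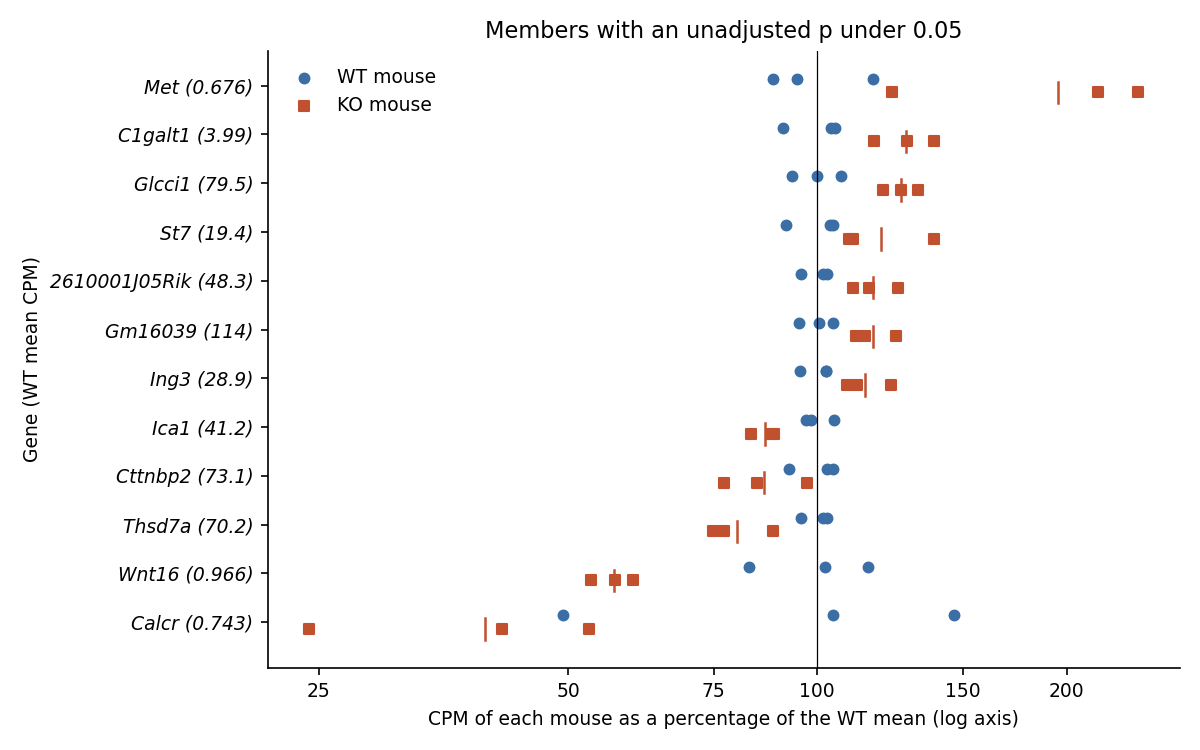
CPM of each mouse as a percentage of the WT mean (log axis) for the 12 members with an unadjusted p under 0.05, WT mice as circles, KO mice as squares and the KO mean as a vertical line, with each gene's WT mean CPM in parentheses. Glcci1 and Thsd7a show narrow, separated groups, while Calcr and Cttnbp2 overlap.

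The imprinted domain and its neighbours, at 6.85 to 9.31 Mb on the near side, held no member past the threshold. Of 14 members of this list, 0 passed the threshold (all genes 0.283%), and at an unadjusted p under 0.05 0 were higher (all genes 4.71%) and 1 lower (all genes 4.25%). The median log2 fold change was -0.01, where all genes had 0.00029. Peg10 read 36.2, 39.4 and 43.8 CPM in WT against 43.2, 33.9 and 29.0 CPM in KO. Its KO female was in the upper part of the WT range and its KO males were below every WT mouse, so the ratio was 0.25 on the log2 scale between females and -0.40 between the means of the males. Sgce was at 29.6 ± 1.46 CPM in WT against 30.9 ± 1.46 CPM in KO (SD, n = 3 each). Casd1, a sialic acid acetyltransferase gene, was at 0.07 (SE 0.07), and Ppp1r9a, the gene of the spine protein neurabin, at -0.03 (SE 0.07). Pon2, a paraoxonase gene, was at -0.02 (SE 0.09), and Gng11, a G protein gamma subunit gene, at -0.0083 (SE 0.10). Dync1i1 read 186, 157 and 166 CPM in WT against 148, 154 and 167 CPM in KO, with overlapping groups (-0.11, SE 0.08, and -0.0032 without WT replicate 1). The lower member was Calcr, the calcitonin receptor gene, at 0.366, 1.09 and 0.775 CPM in WT against 0.393, 0.309 and 0.181 CPM in KO, from 5 to 33 counts a library. WT replicate 1 lay among the KO mice, and the log2 fold change was -1.29 (SE 0.47, edgeR adjusted p = 0.449).

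At the far end of the window, Ing3, a subunit of the NuA4 histone acetyltransferase at 8.86 Mb, read 29.5, 29.6 and 27.5 CPM in WT against 35.4, 32.2 and 31.3 CPM in KO, without overlap (0.19, SE 0.08, edgeR adjusted p = 0.552). Wnt16, a secreted ligand gene at 9.20 Mb, read 0.798, 0.988 and 1.11 CPM in WT against 0.551, 0.515 and 0.579 CPM in KO, from 14 to 33 counts a library. All KO mice were below all WT mice (-0.81, SE 0.27, edgeR adjusted p = 0.392). Fam3c, a secreted protein gene that neighbours Wnt16 on the other strand, was at -0.03 (SE 0.09). Ptprz1 read 338, 355 and 341 CPM in WT against 346, 327 and 328 CPM in KO (-0.05, SE 0.06). The 8 Bergmann glia and astrocyte markers summed to 3060 to 3210 CPM in WT against 3010 to 3220 CPM in KO. Of these 8, 1 was past the threshold and higher, while their median log2 fold change was -0.17. Aass, the first enzyme of lysine breakdown and the last member at 9.98 Mb, was at 13.2 ± 1.57 CPM in WT against 11.8 ± 1.15 CPM in KO (SD, n = 3 each). Just outside the window Cadps2, at 10.2 Mb, was at 0.07 (SE 0.06).

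Sorted by function, with lists drawn up from general knowledge, no list held a member past the threshold. At an unadjusted p under 0.05, 4.71% of all genes were higher and 4.25% lower. The lists are short, their members are neighbours and not independent, and no list was tested as a set against these shares. Of 7 members in mitochondria and metabolism, 0 had an unadjusted p under 0.05, and the median log2 fold change was -0.03. Pdk4, the kinase that restrains pyruvate dehydrogenase, read 11.1, 12.1 and 10.3 CPM in WT against 15.9, 12.8 and 10.9 CPM in KO (0.23, SE 0.14), with 0.084 if WT replicate 1 and 0.076 if KO replicate 1 was left out. Slc25a13, the mitochondrial aspartate-glutamate carrier, was at -0.13 (SE 0.16), Aass at -0.16 (SE 0.13) and Acn9, now named Sdhaf3, an assembly factor of succinate dehydrogenase, at -0.06 (SE 0.10). Among 7 extracellular matrix and secreted factor genes 0 were higher and 2 lower at that p (Thsd7a and Wnt16; median -0.03). Of 10 receptor, channel and membrane signalling genes 1 was higher (Met) and 1 lower (Calcr; median 0.06). Of 9 cytoskeleton, transport and vesicle genes 0 were higher and 2 lower (Ica1 and Cttnbp2; median 0.06). Of 7 transcription, chromatin, RNA and DNA genes 1 was higher (Ing3; median 0.10) and 0 lower. Of 7 genes of the ubiquitin, glycosylation and nutrient-sensing list 3 were higher (Gm16039, Glcci1 and C1galt1; median 0.08) and 0 lower, where Gm16039 and Glcci1 may share reads and are not 2 separate observations. Glcci1 was placed in this list although it is named for its induction by glucocorticoid, so the count of 3 rests in part on that placement.

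A few members varied between mice far more than between genotypes. Mdfic, which encodes an inhibitor of MyoD family proteins, read 2.86, 11.1 and 6.94 CPM in WT against 6.65, 10.9 and 6.70 CPM in KO. It was lowest in WT replicate 1 and highest in WT replicate 2 and KO replicate 2. The choroid plexus markers were at 81.2, 4687 and 3100 CPM in WT and at 1625, 5037 and 1612 CPM in KO, lowest and highest in the same libraries, and their part in the value was not tested. Its log2 fold change was 0.33 (SE 0.31) over all mice and -0.04 without WT replicate 1. Pon3, a paraoxonase gene, read 2.16, 5.96 and 5.16 CPM in WT against 4.60, 6.63 and 2.82 CPM in KO. Cped1 read 3.09, 6.75 and 4.55 CPM in WT against 3.93, 6.35 and 4.02 CPM in KO. Col1a2, a fibrillar collagen gene of fibroblasts, read 17.7, 24.3 and 22.6 CPM in WT against 18.2, 25.1 and 21.8 CPM in KO. In Col1a2, Cped1 and the summed meninges and fibroblast markers, replicate 2 was highest and replicate 1 lowest in each genotype. Tac1, the precursor gene of substance P, had the widest spread of any member, 0.266 to 2.11 CPM in WT against 0.378 to 1.06 CPM in KO, a highest-to-lowest ratio of 7.92.

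**Figure D5:**
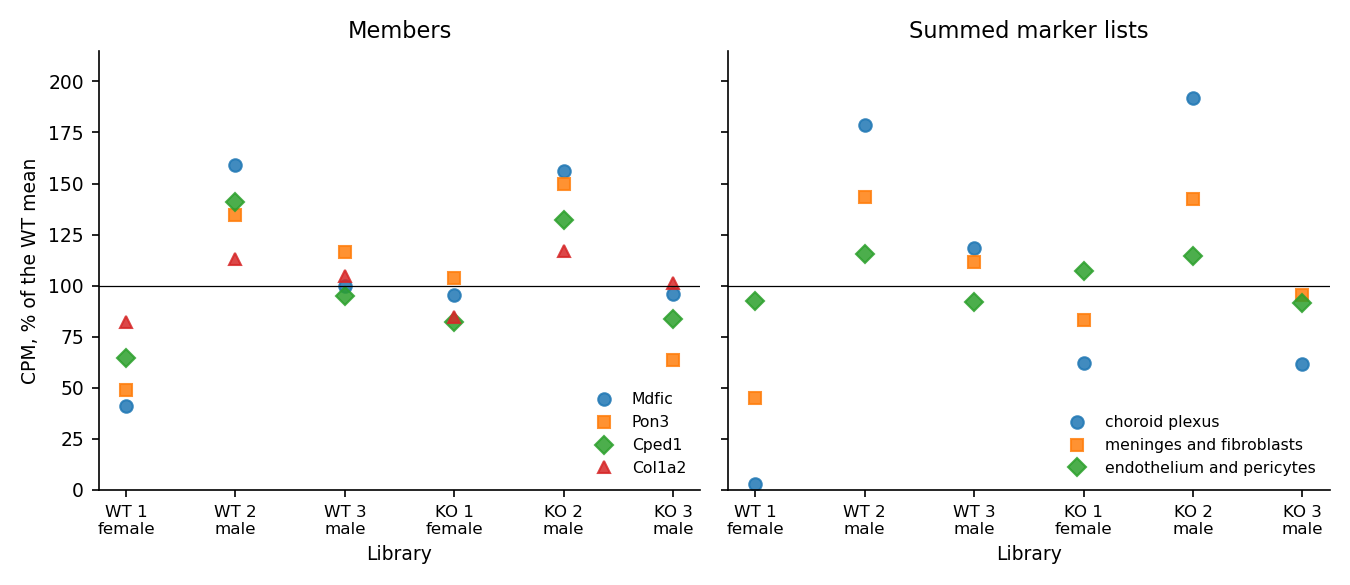
CPM in each library as a percentage of the WT mean, for the members Mdfic, Pon3, Cped1 and Col1a2 (left) and for the summed choroid plexus, meninges and fibroblast, and endothelium and pericyte markers (right). WT replicate 1 is lowest in Mdfic (2.86 CPM) and in the choroid plexus sum (81.2 CPM).

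The genotype difference was also compared between the sexes with an interaction term, where the females are 1 mouse per genotype. For 0 of 58 members, and 0 of all genes, was the interaction past an adjusted p of 0.05 in edgeR. At an unadjusted p under 0.05 there were 8 members, 13.8% of them, where all genes had 18.8%. Of the 12 members with an unadjusted genotype p under 0.05, 11 had the same sign in females and males, and Calcr was the exception. All of the 12 but Calcr and Cttnbp2 had groups that do not overlap, and such groups must give the same sign in both sexes. The 12 were also picked by a p from these same mice, so this count cannot show agreement between the sexes.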

How the data were processed

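The deposited file is a table of raw counts per gene for 6 libraries, and the submitters' processing notes name STAR and the mm10 genome. Neither the labels nor the table header states how reads were counted, with which strand setting or on which gene annotation. Genes were kept by filterByExpr (minimum count 10, minimum total 15), which left 16934. Counts were scaled by TMM and tested with edgeR 4.0.16 (R 4.3.3), quasi-likelihood, with sex and genotype as terms, 3 residual degrees of freedom and Benjamini-Hochberg adjustment over all genes at 0.05. DESeq2 1.42.0 and limma-voom (limma 3.58.1) were alternatives, as were other filters, scalings and left-out libraries. GC and length offsets (loess, span 0.5) were added after seeing the data, with GC from GENCODE M21. The script was tested on simulated data. Members, role lists and tests were chosen with earlier results of these data known. Genes were named by a rule of unadjusted p, fold change, nearness to Tmem106b, level per kb and role list, and Sgce, Pon3, Tac1, Cped1, Col28a1, Mios, Rpa3, A430035B10Rik, 1110019D14Rik, Tes, Cav1, Cav2, Lsm8, Cftr and Gm5873 fall outside it and were chosen after their values were seen. p-values test the genotype difference against the spread between these mice, which edgeR estimates with information shared across genes. Promoters are RefSeq's (GRCm38.p6).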

Additional observations from a re-analysis of the deposited data

How the results depend on the processing

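The count of members past the threshold was 0 in edgeR and stayed 0 in each fit that left out 1 library. It was 1 with no filter on low counts, 2 in DESeq2, 2 with GC and length offsets and 12 at an unadjusted p under 0.05. The median log2 fold change, 0.051, was -0.049 in males only, -0.0019 with GC and length offsets and 0.11 within 5 Mb. With 1 library left out it ran from -0.049 to 0.090, negative if that was WT replicate 1 or KO replicate 1. Members whose groups do not overlap numbered 14, then 30 in males only (51.7%, all genes 38.4%), 9 of the 43 that overlap no other model (20.9%, all genes 14.1%), and 16 to 23 with 1 library left out (27.6% to 39.7%, all genes 20.4% to 31.8%). Of 491 values of 33 named genes under the alternatives, 459 kept their direction and side of the threshold, 5 passed it (Glcci1 and Thsd7a) and 27 in 8 genes changed sign. In males only, Phf14 went to -0.067, B630005N14Rik to -0.086, Mdfic to -0.043 and Col1a2 to -0.0062. Phf14 went to -0.00057 with no filter and -0.10 with GC and length offsets. With 1 library left out, Gng11 ran from -0.069 to 0.046, Col1a2 from -0.036 to 0.096, Ppp1r9a from -0.073 to 0.026, Pon2 from -0.12 to 0.051, Phf14 from -0.067 to 0.10, B630005N14Rik from -0.086 to 0.16, Mdfic from -0.043 to 0.68 and Fam3c from -0.13 to 0.032. The cause was not tested. No paired analysis was possible because the replicate numbers follow the order of deposit. With 3 mice a genotype, members under 1 CPM had a median SE of 0.40, so small differences in them were not detectable at this depth.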
